A study of Mus musculus with 9 samples.

Results

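Clec3b, the gene for tetranectin, was described together with 4 genes of plasminogen activation, Plat, Plau, Plaur and Serpine2, in whole tibialis anterior muscle, which lies at the front of the shin. Members were found by gene symbol in the platform's annotation, which named a probe set for 4 of the 5 genes among 19505 distinct genes on 22206 probe sets. Serpine2 has no named probe set in the annotation used here and was not analysed. Clec3b was chosen by its measured level in MCUb knockout muscle, and the other members as its partners in the pathway, with earlier results of these data known. Its differences that involve MCUb knockout arrays are therefore given as a description with no test, and the same was done for the other members. The comparison of MCU knockout with control was tested.

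There were 3 arrays (Affymetrix Clariom S, mouse) for each of 3 genotypes, and the mice were C57/BL6 animals aged 2 months. MCUb knockout muscle was MCU+/+/MCUb-/-, MCU knockout muscle was MCU-/-/MCUb+/+, and control muscle was MCU+/+/MCUb+/+. MCU forms the pore of the mitochondrial calcium uniporter, and MCUb is its paralogue in the same complex. The labels give no Cre driver, sex or pooling, and they do not say whether each array of a genotype is a different animal. The p-values reflect only how these arrays vary, a spread that could be technical.

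Plasminogen is a circulating proenzyme made mainly by the liver. Tissue-type activator (Plat) and urokinase (Plau) cut it to plasmin, a protease that dissolves fibrin and also cleaves matrix proteins and growth factor precursors. Urokinase works on the cell surface bound to its receptor (Plaur), and serpins such as protease nexin-1 (Serpine2) block both activators. Tetranectin is a secreted trimeric C-type lectin that binds the kringle 4 domain of plasminogen and is found in the matrix of developing and regenerating muscle. In mice, urokinase is known to be needed for normal muscle repair after injury.

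The arrays carried the defining genes of the tissue: 10 of 10 myofibre markers, among them Acta1, Ckm and Myh4, were above background on all 9 arrays. A probe set is called above background on an array when it exceeds the 95th percentile of 23 background features there, a limit between 5.87 and 5.92 on the log2 scale. Mcu itself, the check of the MCU knockout label, had log2 levels of 6.80, 6.98 and 7.06 in MCU knockout muscle, against 10.38, 10.96 and 10.46 in control muscle (adjusted p = 3.47e-05 in limma). The MCUb knockout label has no such check, as Mcub was not analysed here. Control replicate 3 stood apart from the other arrays on the first principal component, at 70.8 against -21.9 to 20.3, and values without it are given below for Clec3b and Plau, and for each pathway gene named with a difference from control that moved by over 1.5 times or changed sign. The Clec3b differences from control without it were 1.69 in MCUb knockout and -0.86 in MCU knockout muscle. Averaged over Uty and Kdm5d, both Y-linked, the log2 level was 7.80 on MCUb knockout replicate 1 and 7.56 and 7.24 on MCU knockout replicates 2 and 3, and between 3.01 and 3.89 on the other 6 arrays.

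Of the 4 measured members, Clec3b and Plau gave signal above background and Plat and Plaur did not. Clec3b was higher in MCUb knockout muscle and lower in MCU knockout muscle than in control muscle, with no overlap between any of the groups, but the MCU knockout difference did not pass the test across all probe sets. Plau levels overlapped between all 3 genotypes. In whole muscle, fewer cells of a type and less RNA per cell cannot be told apart, and this holds for every level below.

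Clec3b (probe set TC0900001658.mm.2, chromosome 9) had log2 levels of 8.11, 9.07 and 9.13 in MCUb knockout muscle. It had 5.92, 6.57 and 6.17 in MCU knockout muscle, and 7.05, 7.11 and 7.09 in control muscle. The control arrays lay close together, while the arrays of both knockouts were spread more widely, and MCUb knockout replicate 1 was the lowest of its group. All arrays were above background except MCU knockout replicate 1, which fell just short of its limit of 5.92. Group means were 8.77 ± 0.57 in MCUb knockout, 6.22 ± 0.33 in MCU knockout and 7.08 ± 0.03 in control muscle (SD, n = 3 each).

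**Figure D1:**
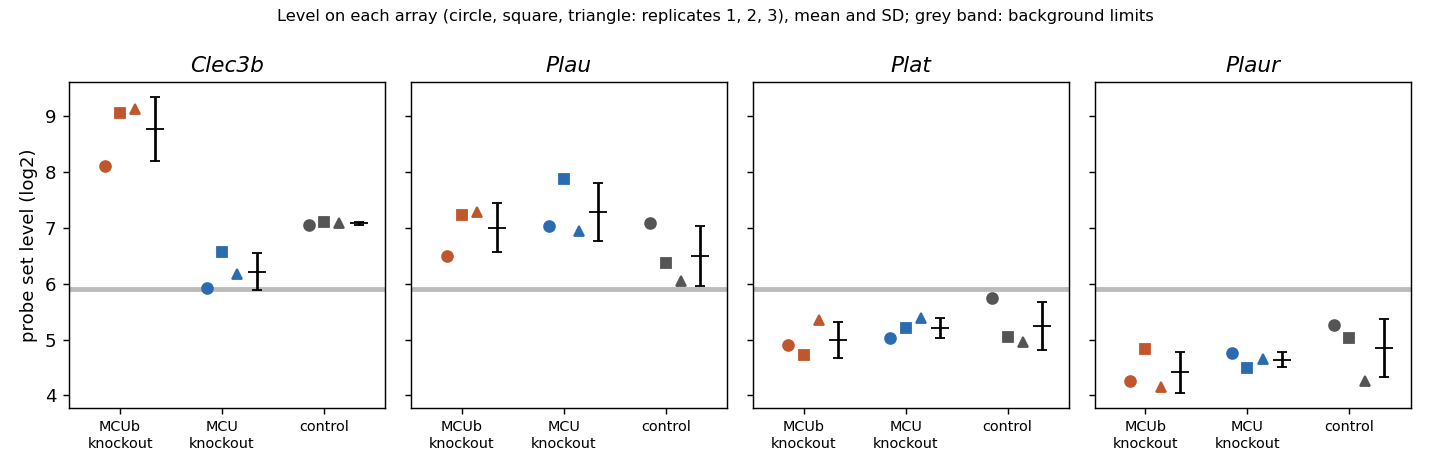
Log2 probe set level of the 4 measured genes on each array, by genotype, with the group mean and SD beside the points (n = 3 arrays) and the range of background limits as a grey band. Clec3b separates the 3 genotypes, Plau overlaps between them, and Plat and Plaur stay below the band on every array.

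The mean level of Clec3b in MCUb knockout muscle was 1.69 above control on the log2 scale (SE 0.28), or 3.22-fold, and the lowest MCUb knockout array lay 1.004 above the highest control array. All MCUb knockout arrays lay above all control arrays in 5.73% of probe sets. This is the contrast that led to the choice of Clec3b. By size it was the rise ranked 13 of the 22206 probe sets. Between the knockouts the difference was larger, 2.55 (SE 0.28) for MCUb knockout over MCU knockout, or 5.86-fold, and ranked 5 from the top, with arrays at least 1.54 apart. All MCUb knockout arrays lay above all MCU knockout arrays in 6.19% of probe sets. These comparisons share the MCUb knockout arrays, so the second is no independent support for the first.

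The difference between MCU knockout and control is taken between those groups' means, while its SE, interval and p share the spread of all 9 arrays. Its results were also known when the genes were chosen, and it shares the control arrays with the contrast that led to the choice of Clec3b. Its test of Clec3b is therefore not free of that choice. In this comparison Clec3b stood at -0.86 (SE 0.28, 95% interval -1.47 to -0.26), 1.82-fold lower in MCU knockout muscle. Of the 3 MCU knockout arrays 2 were above background. This fold and the 5.86-fold between the knockouts therefore rest in part on a level at the background limit. The Clec3b difference did not pass over all probe sets (adjusted p = 0.363 in limma, and 0.407 in a fit of only those 2 groups). By exact permutation of the arrays (two-sided) p was 0.1, and no smaller p can be had with 3 arrays a group. None of the 4 measured members passed in this comparison (0 of 4), where 0.140% of all probe sets did. At an unadjusted p under 0.05 there were 2 of 4, Clec3b and Plau, beside 10.1% of all probe sets. All MCU knockout arrays lay below all control arrays for 1 of the 4 members, Clec3b, with a gap of 0.48, and for 7.33% of all probe sets. Adding the Y-linked level to the fit as a covariate gave a difference of -0.67 (adjusted p = 0.682). Within the MCU knockout group, the arrays with a high Y-linked level were the higher for Clec3b, and within the MCUb knockout group the array with a high Y-linked level was the lowest. How sex bears on Clec3b was not tested beyond that covariate.

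The order MCUb knockout above control above MCU knockout, with no overlap between neighbours, was found for 17 probe sets, or 0.0766% of all. Of these, 14 had a gene name, 5 were above background on all arrays, and Clec3b had the difference between the knockouts ranked 2 by size. Gm10591 is named more than once among them. A probe set of Ccl21b and one of Gm10591 had the same difference between the knockouts, 1.27, so the 17 may hold fewer separate signals. The opposite order was found for 8 probe sets, or 0.0360%. Among the 17 were the clock repressor genes Ciart, with a difference between MCUb and MCU knockout of 2.37, and Per2, with one of 1.75, both chosen after their values were seen. The order rests on the same arrays that made Clec3b stand out.

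**Figure D2:**
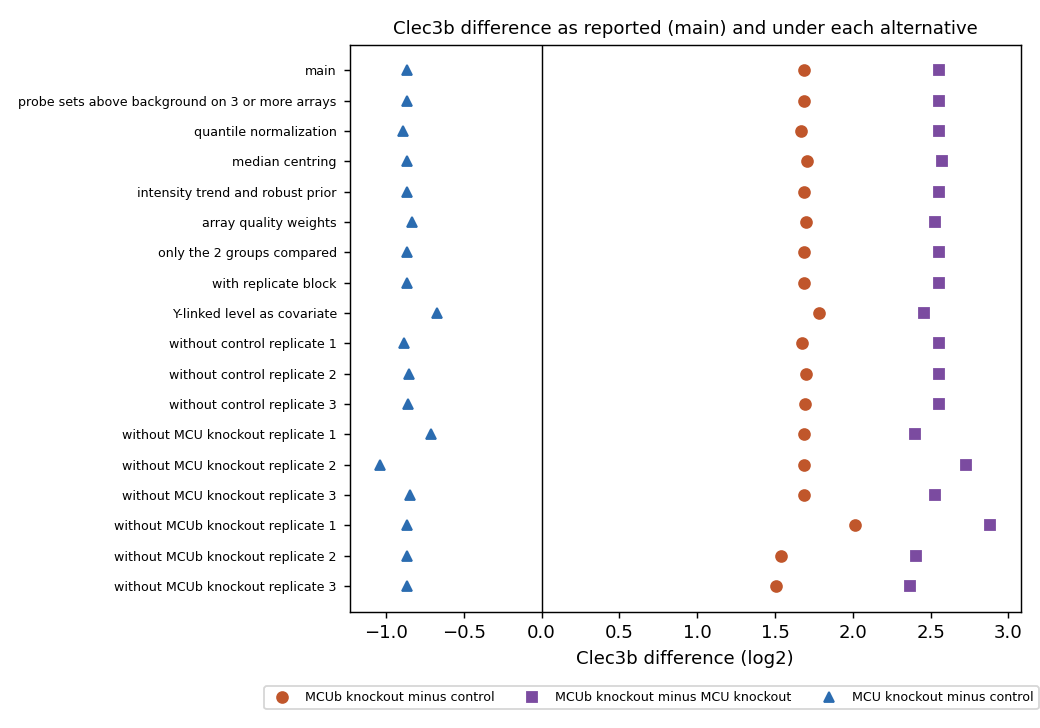
Difference in Clec3b level (log2, horizontal axis) as reported, in the top line, and under each of 17 alternatives, for the 3 comparisons. The MCUb knockout minus control difference stays between 1.51 and 2.02, and the MCU knockout minus control difference between -1.04 and -0.67.

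Plau (TC1400000176.mm.2, chromosome 14), the urokinase gene, had log2 levels of 6.50, 7.24 and 7.28 in MCUb knockout muscle. They were 7.03, 7.88 and 6.94 in MCU knockout muscle, and 7.08, 6.37 and 6.04 in control muscle. All 9 arrays were above background, and control replicate 1 reached into the range of both knockouts. The means were 7.005 ± 0.44 in MCUb knockout, 7.29 ± 0.52 in MCU knockout and 6.50 ± 0.53 in control muscle (SD, n = 3 each). MCU knockout lay 0.79 above control (SE 0.34, 95% interval 0.05 to 1.53), which did not pass over all probe sets (adjusted p = 0.474 in limma, exact permutation p = 0.3). MCUb knockout lay 0.51 above control (SE 0.34). Without control replicate 3 these differences were 0.56 and 0.28. By their means the order was MCU knockout, MCUb knockout, control, and no neighbours in it were separated beyond the spread of their arrays. The difference between MCUb and MCU knockout was -0.28, and 0.02 without MCU knockout replicate 2, so the order of the knockouts rests on that array.

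Plat (TC0800000286.mm.2, chromosome 8), the tissue-type activator gene, had log2 levels of 4.90, 4.73 and 5.36 in MCUb knockout muscle and 5.03, 5.20 and 5.39 in MCU knockout muscle, against 5.74, 5.04 and 4.96 in control muscle. Plaur (TC0700000383.mm.2, chromosome 7), the urokinase receptor gene, had 4.26, 4.83 and 4.15 in MCUb knockout muscle and 4.76, 4.49 and 4.66 in MCU knockout muscle, against 5.27, 5.02 and 4.26 in control muscle. Neither gene was above background on any array, so no fold is given for either. The groups overlapped for both genes in every comparison. In MCU knockout against control the adjusted p in limma was 0.972 for Plat and 0.819 for Plaur.

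Other genes of the pathway were taken from 6 lists of 40 genes, of which 36 had a named probe set. Of these, 13 were above background on all 9 arrays, 5 on some and 18 on none. In limma 0 of the 36 passed between MCUb knockout and control, 0 between MCU knockout and control and 0 between the knockouts, against 0.0225%, 0.140% and 0.158% of all probe sets. At an unadjusted p under 0.05, 2 were higher and 3 lower in MCUb knockout than in control muscle (13.9%, against 8.11% of all probe sets). In MCU knockout against control, 4 were higher and 1 lower (13.9%, against 10.1%), and between the knockouts there were 0, against 5.70%. Median differences over the 36 were -0.04, 0.04 and -0.13 in that order, beside -0.03, -0.02 and -0.01 over all probe sets.

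Plasminogen itself and its alternative activators gave no signal above background. Plg was not above background on any array, nor were F12, F11, Habp2 and Hgfac, proteases that can cut plasminogen, urokinase or growth factor precursors. Among surface proteins that hold plasminogen, Plgrkt, a transmembrane receptor with a C-terminal lysine, had log2 levels of 8.07, 8.70 and 7.90 in MCU knockout muscle, against 6.67, 8.26 and 7.07 in control muscle. Control replicate 2 overlapped with the knockout, and the difference of 0.89 (SE 0.38) did not pass (adjusted p = 0.474). In MCUb knockout muscle Plgrkt was at 7.50 ± 0.38 (SD, n = 3), a difference from control of 0.17. Anxa2 and S100a10, which form the annexin A2 complex that binds plasminogen and its activator, differed from control by -0.30 and 0.30 in MCUb knockout and by 0.16 and 0.08 in MCU knockout muscle, none past the threshold. Without control replicate 3 the Plgrkt difference in MCUb knockout was 0.04, and those of Anxa2 were -0.45 in MCUb knockout and 0.01 in MCU knockout muscle. Those of S100a10 were 0.49 in MCUb knockout and 0.27 in MCU knockout muscle. Eno1 and Klkb1 had no named probe set.

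Inhibitors were likewise dim. Serpinb2, Serpinf2 (antiplasmin), Serpini1 (neuroserpin), Serpina5, Serpine3 and A2m were not above background on any array. Cpb2, which makes fibrin less open to plasmin, had no named probe set.

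Of the surface partners and clearance receptors, 7 of 9 genes were above background on all arrays and the other 2 on some. Vtn, the gene for vitronectin, which binds the urokinase receptor, had log2 levels of 10.06, 10.08 and 10.10 in MCUb knockout and 10.22, 10.05 and 10.35 in MCU knockout muscle, against 10.46, 11.06 and 10.62 in control muscle. Every array of both knockouts lay below every control array, by differences of -0.63 (SE 0.20, adjusted p = 0.534) and -0.51 (adjusted p = 0.425), neither past the threshold. All MCUb knockout arrays lay below all control arrays in 7.02% of probe sets, and all MCU knockout arrays did so in 7.33%. These comparisons share the control arrays.

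Itgav, the integrin subunit alpha v of the vitronectin receptors, had levels of 8.74, 8.68 and 8.44 in MCUb knockout and 8.77, 8.84 and 8.63 in MCU knockout muscle, against 8.28, 8.27 and 7.69 in control muscle. Here every knockout array lay above every control array, by 0.54 (SE 0.20, adjusted p = 0.562) and 0.66 (adjusted p = 0.345). Control replicate 3 was the lowest array, and without it the differences were 0.35 in MCUb knockout and 0.47 in MCU knockout muscle. All MCUb knockout arrays lay above all control arrays in 5.73% of probe sets, and all MCU knockout arrays did so in 6.08%. Both comparisons share the control arrays. Its partner Itgb3 was above background on 1 array, a control, and averaged 4.73 ± 0.64 in MCUb knockout and 5.21 ± 0.32 in MCU knockout muscle, against 5.78 ± 0.20 in control muscle (SD, n = 3 each), so no fold is given (adjusted p = 0.496 and 0.554).

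Lrp1, the receptor that takes up complexes of urokinase and inhibitor, differed from control by 0.01 in MCUb knockout and by 0.42 in MCU knockout muscle, the first of which was 0.11 without control replicate 3. Its chaperone Lrpap1 had levels of 9.27, 9.80 and 10.12 in MCU knockout muscle, against 8.81, 9.81 and 7.63 in control muscle, where control replicate 3 was the lowest of all arrays. The difference of 0.98 (SE 0.44) did not pass (adjusted p = 0.481) and was 0.42 without control replicate 3. Mrc2, an endocytic collagen receptor that associates with the urokinase receptor, had 6.98, 7.93 and 8.22 in MCUb knockout muscle, against 7.03, 7.51 and 6.96 in MCU knockout muscle, with a difference of 0.54 (SE 0.29, adjusted p = 0.944). It was 0.91 without MCUb knockout replicate 1 and 0.29 without MCUb knockout replicate 3.

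Among substrates and matrix proteases, the fibrinogen genes Fga, Fgb and Fgg, the protease gene Mmp9, its inhibitor gene Timp1 and Hgf, a growth factor gene, were not above background on any array. Mmp14, a membrane-bound matrix metalloprotease, had levels of 6.09, 7.65 and 7.32 in MCU knockout muscle, against 5.93, 6.46 and 5.97 in control muscle. MCU knockout replicate 1 lay within the control range, and the difference of 0.90 (SE 0.35) did not pass (adjusted p = 0.423). Mmp2, the gelatinase that Mmp14 activates, was at 9.97 ± 0.29 in MCUb knockout and 10.38 ± 0.57 in MCU knockout muscle (SD, n = 3 each), and Mmp3 was above background on 1 of the 9 arrays. Of the lectins related to tetranectin, Clec3a was not above background on any array and Clec11a, a bone growth factor, was above it on 3, with differences from control of -0.36 in MCUb knockout and -0.20 in MCU knockout muscle (adjusted p = 0.785 and 0.867). Both rest on control replicate 3, at 6.93 against 5.85 and 5.52 on the other control arrays, and were 0.05 and 0.22 without it.

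**Figure D3:**
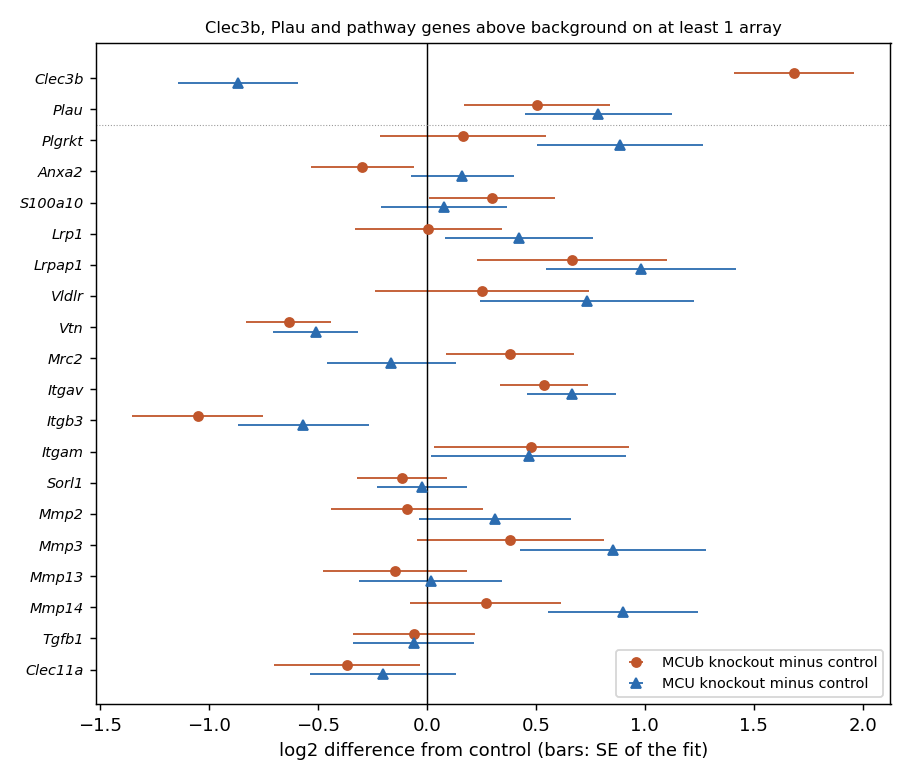
Log2 difference from control in MCUb knockout (circles) and MCU knockout (triangles) muscle, with the SE of the fit, for Clec3b and Plau (above the dotted line) and the 18 pathway genes above background on at least 1 array. Clec3b is the gene with opposite differences beyond the SE in the 2 knockouts, at 1.69 and -0.86.

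Fibroblasts of connective tissue are known to express Clec3b, and markers of the cell types that whole muscle holds were set beside it. Of 15 fibroblast markers 13 were measured, 12 of them above background on all arrays and 1 on some. Their mean log2 level ran from 8.94 to 9.74 in MCUb knockout and from 8.95 to 9.98 in MCU knockout muscle, against 9.03 to 9.72 in control muscle. The 3 groups overlapped. In MCUb knockout against control 5 markers lay above and 8 below, with a median difference of -0.07. In MCU knockout against control 7 lay above and 6 below, with a median of 0.01. None of the 13 passed in limma in either comparison (0). At an unadjusted p under 0.05 there were 0 in MCUb knockout and 1, higher, in MCU knockout muscle. Of all probe sets, 8.11% and 10.1% had such a p in these comparisons. Within each genotype the array lowest for the fibroblast list was MCUb knockout replicate 1, MCU knockout replicate 1 and control replicate 2. The first 2 of these were also the lowest for Clec3b in their group. Control replicate 2 was instead the highest control array for Clec3b, at 7.11 against 7.05 and 7.09.

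Endothelial, macrophage and neutrophil lists also overlapped between MCUb knockout and control muscle. The mean level of 10 endothelial markers ran from 8.92 to 9.36 in MCUb knockout and from 9.03 to 9.32 in MCU knockout muscle, against 9.05 to 9.70 in control muscle. That of 8 macrophage markers, of which C1qb and C1qc were above background on no array, ran from 6.23 to 7.21 and from 6.68 to 7.18 in the knockouts, against 6.52 to 7.09 in control muscle. Neutrophil markers, with Csf3r and Mmp8 above background on no array, ran from 4.30 to 6.58 in MCUb knockout and from 4.54 to 4.59 in MCU knockout muscle, against 4.34 to 6.26 in control muscle. The high values came from MCUb knockout replicate 1 and control replicate 3. Over all 11 marker lists 73 of 83 genes were measured, and 0 passed in limma in any of the 3 comparisons. At an unadjusted p under 0.05 there were 0 higher and 2 lower in MCUb knockout against control. At that p, 3 were higher and 5 lower in MCU knockout against control, and 1 higher and 3 lower between the knockouts. These counts were 2.74%, 10.96% and 5.48% of the 73 genes, against 8.11%, 10.1% and 5.70% of all probe sets. The list medians ran from -0.59 to 0.17, from -0.77 to 0.23 and from -0.30 to 0.38 in that order. Some markers were lower in both knockouts by their means, and others were higher in both. Among the higher were the fibroblast genes Lum and Col3a1. Lum differed from control by 0.76 in MCUb knockout and 0.85 in MCU knockout muscle, and Col3a1 by 0.55 and 1.13. Neither gene passed in limma, and their arrays overlapped with control. The erythroid gene Alas2, the 1 measured gene of 4 on the blood list, ran from 7.54 to 8.18 in MCUb knockout and from 7.57 to 7.72 in MCU knockout muscle, against 8.14 to 8.76 in control muscle. Its differences from control were -0.59 (adjusted p = 0.562) and -0.77 (adjusted p = 0.332), and the MCU knockout arrays lay apart from control. Rgs5, a pericyte gene, averaged 12.28 ± 0.05 in MCUb knockout and 11.77 ± 0.30 in MCU knockout muscle, against 12.60 ± 0.19 in control muscle (SD, n = 3 each). All arrays of both knockouts lay below control for Rgs5 (adjusted p = 0.686 and 0.247). The mean of the 7 pericyte and smooth muscle markers overlapped between the groups. Of these markers 0 lay above and 7 below control in MCUb knockout, and 4 above and 3 below in MCU knockout muscle. All MCUb knockout arrays lay below all control arrays in 7.02% of probe sets, and all MCU knockout arrays in 7.33%. Alas2, Rgs5, Lum and Col3a1 were chosen after their values were seen. The part of any cell type in the Clec3b level was not tested.

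**Figure D4:**
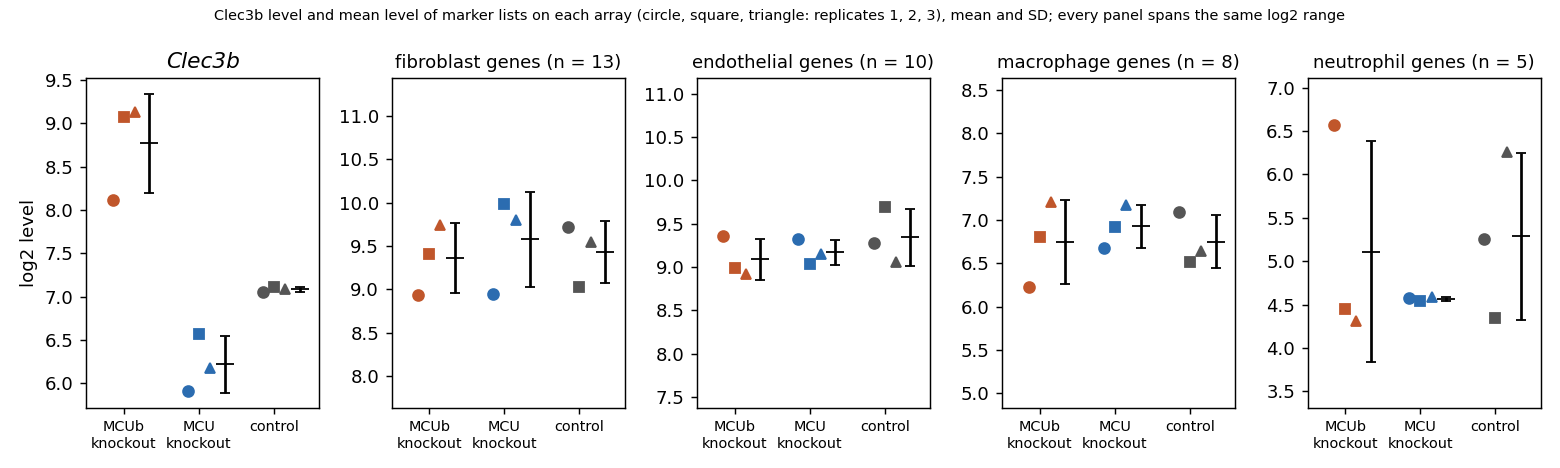
Clec3b level and mean level of 4 lists of cell type markers on each array (log2), by genotype, with group mean and SD (n = 3 arrays); every panel spans the same log2 range. The Clec3b groups are apart, while the fibroblast, endothelial, macrophage and neutrophil lists overlap between MCUb knockout and control muscle.

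The genes whose pattern was most like that of Clec3b over the 9 arrays were sought among 7817 named genes above background on all of them, by Pearson correlation, as a description. The arrays fall into 3 groups for Clec3b, so such a correlation mostly follows the group means. For this reason the correlation of the deviations from the group means is given too; its 5th and 95th percentiles over the genes were -0.63 and 0.63. A correlation over 0.9 was found for 7 genes. Mcur1, a mitochondrial inner membrane protein named as a regulator of the uniporter, came first at 0.94 (0.69 for the deviations), with 11.18 ± 0.11 in MCUb knockout and 10.69 ± 0.15 in MCU knockout muscle, against 10.91 ± 0.08 in control muscle (SD, n = 3 each). Its differences from control, 0.27 and -0.22, were small beside those of Clec3b and did not pass (adjusted p = 0.688 and 0.684).

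The chemokine genes Ccl21b and Ccl21c came next, at 0.94 each (0.60 for the deviations). Their probe sets gave identical values on every array and count as 1 signal. It averaged 8.02 ± 0.24 in MCUb knockout and 6.80 ± 0.32 in MCU knockout muscle, against 7.38 ± 0.20 in control muscle (SD, n = 3 each), with a difference between the knockouts of 1.22 (adjusted p = 0.0812). Fam241a (0.93, with 0.61 for the deviations) and Shld2, a DNA repair factor (0.92, with 0.84 for the deviations), completed the 5. Fam241a averaged 7.35 in MCUb knockout and 6.35 in MCU knockout muscle (adjusted p = 0.200), and Shld2 differed between the knockouts by 0.64 (adjusted p = 0.605). The most opposite patterns were those of Pdk4, the kinase that switches off pyruvate dehydrogenase, at -0.93, and Frat2, a GSK3 binding protein, at -0.90 (-0.49 for the deviations). For Ccl21b, Ccl21c, Fam241a and Frat2 the correlation of the deviations lay between the 5th and 95th percentiles over the genes. Pdk4 averaged 9.55 ± 0.72 in MCUb knockout and 11.42 ± 0.41 in MCU knockout muscle, against 10.41 ± 0.42 in control muscle (SD, n = 3 each), and its deviations within the groups also ran against those of Clec3b (-0.85). The difference in Pdk4 between the knockouts, -1.87 (SE 0.36), did not pass (adjusted p = 0.112). Among genes of the pathway, Mrc2 had 0.75, with 0.93 for the deviations, and Plau had 0.05, with 0.68 for the deviations. Others did not follow Clec3b. Sorl1 had -0.40, with -0.68 for the deviations, and Anxa2 had -0.59, with 0.01 for the deviations. These pathway genes were chosen after their values were seen.

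**Figure D5:**
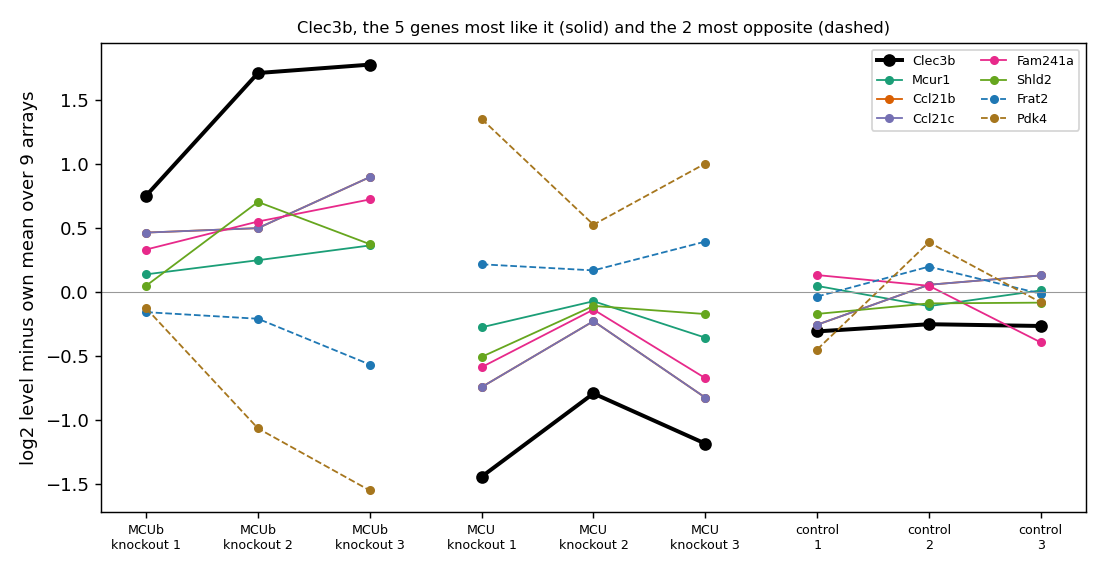
Log2 level of Clec3b, the 5 genes most like it (solid) and the 2 most opposite (dashed) on each array, each gene minus its own mean over the 9 arrays; points of a genotype are joined only to guide the eye, and Ccl21b lies under Ccl21c. Clec3b and its likest genes sit high in MCUb knockout and low in MCU knockout muscle, and Pdk4 runs the other way.

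Genes next to Clec3b on chromosome 9 were read for comparison. Of the 3 nearest measured genes on each side, Zdhhc3 and Exosc7 before it and Lars2 after it were above background on all arrays. Their differences from control were -0.12, 0.12 and 0.55 in MCUb knockout muscle and -0.03, 0.15 and 0.24 in MCU knockout muscle, with adjusted p between 0.688 and 0.978. Tgm4, Cdcp1 and Tmem158 were not above background on any array. The measured members lie on 4 different chromosomes.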

How the data were processed

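Total RNA of flash-frozen muscle was labelled with a 3' IVT Pico kit, per the labels' protocols. The authors deposited a log2 value for every probe set on each array; the submitters' processing notes name Affymetrix Expression Console as the tool. For its version, summarisation, normalization and log base, the sources used here give nothing, and values (2.33 to 19.9) were read as log2, on which every fold rests. How the normalization shaped them is not known, and the number of arrays limits the precision. Control features (6640) were left out, leaving 22206 probe sets. All 19572 named ones were matched by gene identifier to RefSeq symbols of GRCm38.p6, used for names, chromosomes and gene order only. For genes with several probe sets the one with the highest mean was read, which touched no member.

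All 9 arrays entered 1 fit of 3 group means in limma 3.58.1 (R 4.3.3; lmFit and eBayes, two-sided, 6 residual degrees of freedom and a prior of 5.06). Benjamini-Hochberg adjustment ran over all 22206 probe sets, with a threshold of 0.05. The script was tested on simulated data. Exact permutation tests used scipy 1.17.1. Members, gene lists and settings were chosen with earlier results of these data known. The text names all members, and up to 3 genes of each pathway list with the smallest p in each comparison. It also names the 5 most like and 2 most unlike Clec3b, and 3 neighbours on each side. Sorl1 is named only for its correlation with Clec3b, and Itgam, Mmp13, Tgfb1 and Vldlr appear only in a plot. Alternatives were a dim filter, quantile normalization, median centring, an intensity trend with robust prior, array weights, only the groups compared, a replicate block, the Y-linked level as covariate and leaving out each array. The mean of several probe sets could not be tried, since each member has 1.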

Additional observations from a re-analysis of the deposited data

How the results depend on the processing

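The Clec3b differences kept their direction under all 17 alternatives, and MCU knockout minus control stayed short of the threshold (adjusted p between 0.233 and 0.682). Leaving out 1 array at a time gave 1.51 to 2.02 for MCUb knockout minus control and -1.04 to -0.71 for MCU knockout minus control. For MCUb knockout minus MCU knockout it gave 2.37 to 2.88. In MCU knockout minus control, exact permutation (two-sided) gave p = 0.2 with any array of those groups left out. No smaller p can be had with so few arrays. Same-numbered arrays of different groups had correlations of their deviations between -0.12 and 0.09. Differently numbered arrays had the same range, -0.12 to 0.09. These values show no pairing by number, but whether the arrays were matched is not known. With a replicate block the Clec3b differences were 1.69, -0.86 (adjusted p = 0.389) and 2.55, and 5, 24 and 28 probe sets passed.

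Counts of probe sets that passed moved more, and the cause was not tested. For MCUb knockout minus control, 5 passed, 1 in a fit of only those groups (1571 at an unadjusted p under 0.05), and 0 to 20 with 1 array left out. The 0 came in limma without control replicate 1, MCUb knockout replicate 1 or MCUb knockout replicate 3 (1649, 1395 and 1436 at an unadjusted p under 0.05), 2 passed without MCUb knockout replicate 2, 3 without MCU knockout replicate 2, and 20 when control replicate 2 was dropped. For MCU knockout minus control, 31 passed, 16 with the Y-linked covariate, and 20 to 98 with 1 array left out, 20 when MCU knockout replicate 3 was dropped and 98 when control replicate 2 was. For MCUb knockout minus MCU knockout, 35 passed, 61 with array weights, and 13 to 43 with 1 array left out; 13 passed without MCU knockout replicate 3, 19 without MCUb knockout replicate 3 and 23 without MCUb knockout replicate 2.

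Some differences that had not passed changed sign with 1 array left out. In MCU knockout minus control, Plat ran from -0.18 to 0.21, Anxa2 from -0.044 to 0.30 and Clec11a from -0.49 to 0.22. In MCUb knockout minus control, Clec11a ran from -0.66 to 0.052 and Plgrkt from -0.17 to 0.63. In MCUb knockout minus MCU knockout, Plau ran from -0.45 to 0.02, Clec11a from -0.30 to 0.0014 and Mmp3 from -1.02 to 0.076. The filter on dim probe sets removed Plat and Plaur.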
